A study of Mus musculus with 6 samples.

Results

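The genes described here are 49 genes of DNA replication and S phase, from the origin recognition complex and the MCM2-7 helicase to the polymerases, the sliding clamp and the enzymes that supply nucleotides. They were chosen by name. Each was found in all 6 expression tables through its RefSeq accession, and where several transcripts of a gene were listed (11 of the 49) the transcript with the most counts over the 6 libraries was used. All 49 were among the 12041 of 20702 genes whose RPKM in the control library reached 1, where RPKM is the number of exonic reads scaled to transcript length and to the reads of the library. V6.5 murine embryonic stem cells (ESCs), a C57BL/6-129 line, were infected with lentiviral shRNA constructs and selected with puromycin, and total RNA was sequenced. The control library carried a hairpin against GFP. One library carried a hairpin against Smc1 (SMC1, a subunit of cohesin), and there were 2 libraries against CapH2 (CAPH2, a subunit of condensin II) and 2 against Smc2 (SMC2, shared by condensins I and II), each with a different hairpin. The line is kept on irradiated fibroblasts, and the cells used here had been passaged once without them. All groups shared the same selection, given in the sample labels as puromycin at 0.5 and then 1 µg/ml for 48 hours each, and the same input of RNA from 652000 cells with ERCC synthetic RNAs added.

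DNA replication starts at sites bound by the origin recognition complex, where CDC6 and CDT1 load the MCM2-7 helicase in G1. The kinases CDC7-DBF4 and CDK2 with a cyclin E then activate the helicase together with CDC45 and GINS, and polymerases held by the clamp PCNA copy the strands. Many of these genes are targets of E2F transcription factors, and ESCs, which spend much of a short cycle in S phase, transcribe them at a high level. The comparison with each knockdown asks how much of this programme's RNA differed when a cohesin or a condensin subunit was reduced.

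The base sequence before the transcription start was examined because E2F sites are the best known shared element of these promoters. An entry in the RefSeq promoter table (GRCm38.p6) was available for 40 of the 49 genes. The letters TTTCCCGC, TTTGGCGC, TTTGCCGC or TTTCGCGC, which are common forms of the E2F site, were searched on both strands in the 250 bases before the start. They occurred in 9 of the 40 promoters (22.5%), against 1.86% of all 32851 promoters and 4.13% of the promoters of 9551 expressed genes. The 9 genes were Mcm5, Mcm6, Mcm7, Orc1, Orc3, Cdc6, Gins3, Rfc3 and Pola1. The letters CCAAT, searched in the same way, occurred in 23 of the 40 (57.5%), against 33.8% of all promoters and 40.9% of those of expressed genes. Shown are 4 of the promoters with an E2F match, those of Orc1 and Mcm7, which had the largest decreases of the 9 in the SMC1 library, and of Rfc3 and Cdc6, the pair with the largest increases. Capitals mark the E2F match, and each sequence is the strand of the gene, 5′ to 3′, ending at the base before the start given by that table. For Cdc6 the bases after that start were not found in the longest annotated transcript, so its start, and the distance counted from it, were not matched to a transcript, as they were for the other 3.
Orc1, chr4:108579204-108579453, plus strand: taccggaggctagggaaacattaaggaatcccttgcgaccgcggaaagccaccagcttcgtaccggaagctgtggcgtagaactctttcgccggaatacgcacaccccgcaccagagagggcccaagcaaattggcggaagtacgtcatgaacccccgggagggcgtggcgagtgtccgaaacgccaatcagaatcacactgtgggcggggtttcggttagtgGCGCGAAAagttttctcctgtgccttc
Mcm7, chr5:138171884-138172133, minus strand: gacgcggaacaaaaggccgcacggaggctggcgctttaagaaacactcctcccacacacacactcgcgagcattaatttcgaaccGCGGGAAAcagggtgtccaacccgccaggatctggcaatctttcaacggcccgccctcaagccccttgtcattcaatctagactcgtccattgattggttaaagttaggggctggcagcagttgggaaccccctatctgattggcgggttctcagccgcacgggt
Rfc3, chr5:151651209-151651458, minus strand: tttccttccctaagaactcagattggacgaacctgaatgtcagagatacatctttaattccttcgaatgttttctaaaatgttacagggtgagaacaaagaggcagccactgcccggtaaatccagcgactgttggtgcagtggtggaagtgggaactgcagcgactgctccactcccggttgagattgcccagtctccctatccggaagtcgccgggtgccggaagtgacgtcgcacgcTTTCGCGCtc
Cdc6, chr11:98907901-98908150, plus strand: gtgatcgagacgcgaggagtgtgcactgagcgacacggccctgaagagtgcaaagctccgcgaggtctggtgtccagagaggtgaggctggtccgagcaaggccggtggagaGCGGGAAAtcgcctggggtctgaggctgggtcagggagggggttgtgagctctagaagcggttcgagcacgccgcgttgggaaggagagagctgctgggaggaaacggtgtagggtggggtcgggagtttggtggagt
The match lies 27 bases before the start in Orc1, 165 in Mcm7, 10 in Rfc3 and 138 in Cdc6, and the promoters without a table entry were those of Mcm4, Gins1, Gins2, Gins4, Ccne2, Rfc2, Prim2, Pole and Tipin. Genes with and without an E2F match were found on both sides of the SMC1 comparison. Among the 40 genes with a promoter entry, the median log2 change in the SMC1 library against GFP was -0.06 over the 9 with an E2F match. It was -0.27 over those of the 40 without a match. For CCAAT, also among the 40, it was -0.28 for genes with these letters and -0.19 for those without. These are descriptions of letters in a window, and no test was made.

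The libraries held between 25467427 and 31337313 counts over all transcript rows, so that every one of the 49 genes had at least 550 counts in every library. Smc1a had an RPKM of 36.1 in GFP, 14.4 in SMC1 (39.9% of GFP), 46.9 and 46.2 with CAPH2 hairpins and 45.6 and 41.7 with SMC2 hairpins. Ncaph2, which encodes CAPH2, had 80.2 in GFP, 54.0 in SMC1, 16.9 and 27.9 with its own hairpins (21.0% and 34.8%) and 63.9 and 64.9 with SMC2 hairpins. Smc2 had 26.6 in GFP, 41.9 in SMC1, 42.3 and 40.6 with CAPH2 hairpins and 18.8 and 19.1 with its own (70.7% and 71.9%). Each target was lowest with its own hairpins, and Ncaph2 was also lower than GFP in the SMC1 library, at 67.3%. Smc2 was reduced least against GFP, where its level was below that in the SMC1 and CAPH2 libraries. Against the CAPH2 libraries its log2 fold change in the SMC2 libraries was -1.12, in the edgeR fit described below. GFP and SMC1 had 1 library each, and nothing in the labels says that the libraries came from separate cultures. Changes against GFP are therefore given with exact binomial 95% intervals, which cover counting error only, and without a p-value. Scaling to the ERCC RNAs in place of the library's own reads shifted the log2 changes of all genes by 0.87 for SMC1, 0.63 for CAPH2 #1, -0.05 for CAPH2 #2, 0.64 for SMC2 #1 and 0.57 for SMC2 #2. The ERCC share of counts was 1.72% in GFP and 1.77% in CAPH2 #2, and between 0.948% and 1.16% in the other libraries. Because such a shift turns the sign of most small changes, directions below are those of RPKM, relative to the other RNAs of the same library.

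The 49 genes were abundant in these cells. Their RPKM in the GFP library ran from 8.82 for Ccne2 to 333 for Pcna, with a median of 71.0, against a median of 14.2 over all expressed genes. The 6 MCM2-7 subunits together had an RPKM of 1240, and the 6 subunits of the origin recognition complex together had 225.

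With the SMC1 hairpin, the replication genes were lower as a group by a small amount. The RPKM was below that of GFP for 40 of the 49 genes, with a median log2 change of -0.23 (all 12041 genes: -0.03, 52.7% of them below GFP), whereas ERCC scaling placed 48 of the 49 above GFP. The median of the group stood 0.19 below that of all genes, a distance of -0.19 that no scaling of whole libraries can change. Few changes were large. A decrease of at least 1.5-fold was seen for 3 genes (Pold2, Cdt1 and Orc1) against a background of 17.6% of all genes, and an increase of that size for 1 (Ccne2) against 15.1%. The interquartile range of the changes was 0.36 log2 units in this group and 0.76 over all genes. The genes of this group had more counts in GFP, with a median of 3389 against 860 over all genes. The spread was not compared at equal counts. Among the 7635 genes at least as abundant as Ccne2 in GFP, a comparison chosen after seeing the data, 15.9% fell below the 1.5-fold limit and 7.47% rose above it, beside 6.12% and 2.04% of the 49 replication genes. In bulk RNA, fewer cells in S phase and less RNA of these genes per cell cannot be told apart.

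**Figure D1:**
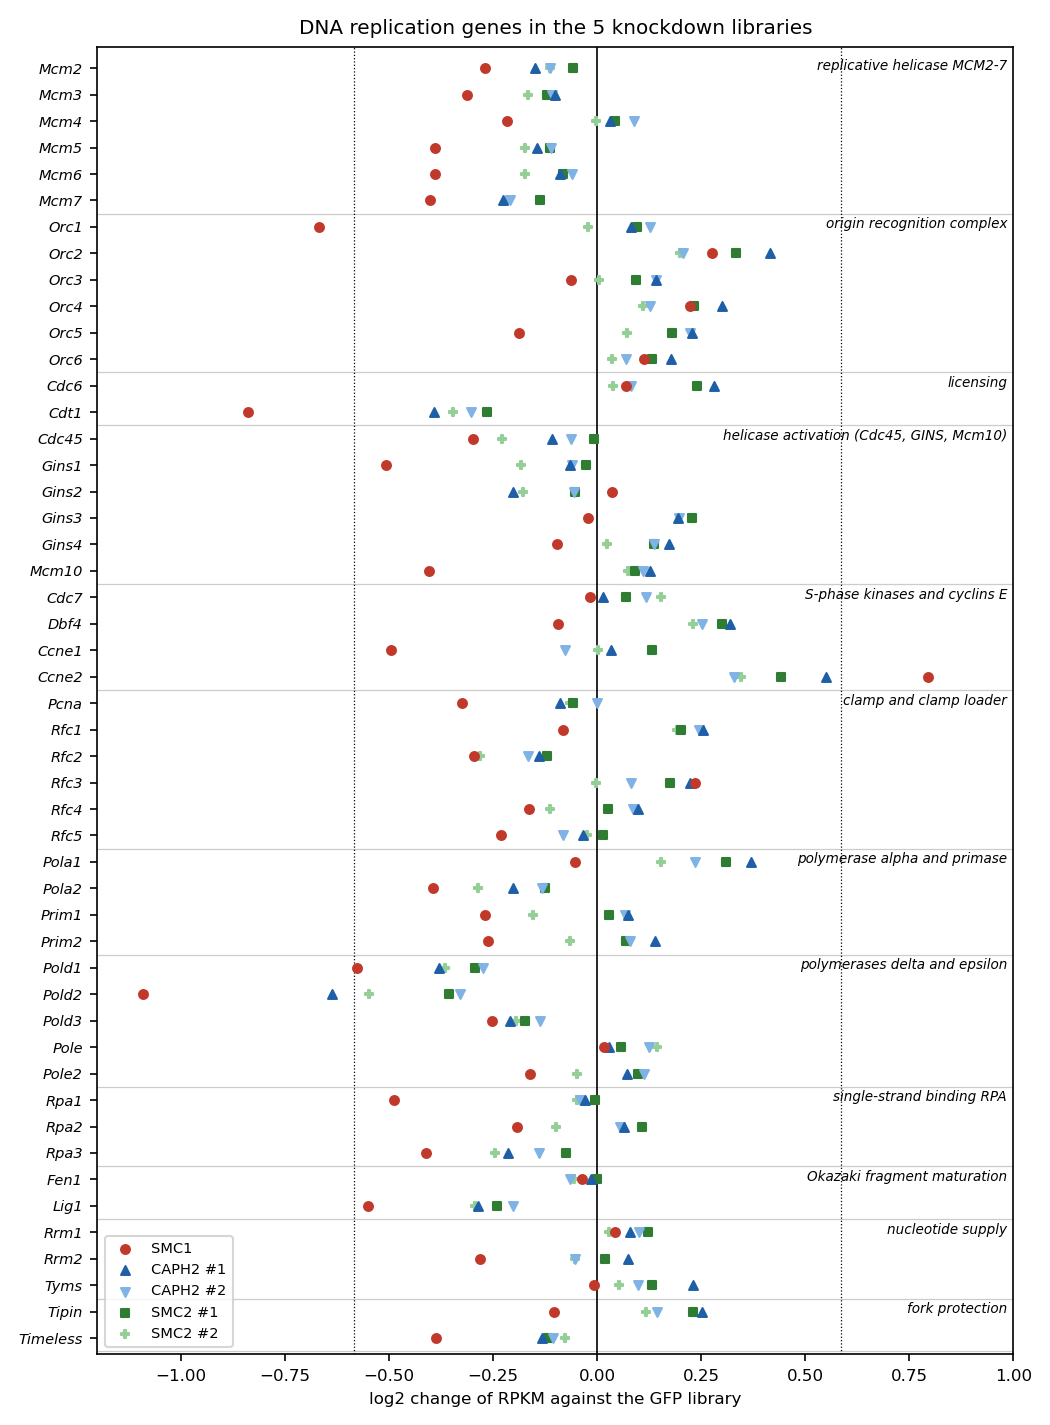
Log2 change of RPKM against the GFP library (horizontal axis) for each of the 49 genes, grouped by role, with 1 symbol per knockdown library and dotted lines at 1.5-fold in either direction. The SMC1 symbols lie left of 0 for 40 genes and the condensin symbols lie on both sides. ERCC scaling would move the SMC1 symbols right by 0.87 and leave only Pold2 left of 0.

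The largest decreases were in a subunit of polymerase delta and a licensing factor. Pold2, the second subunit of polymerase delta (chromosome 11 from 5772185 to 5778259, minus strand, mm9), had an RPKM of 138 in GFP, 64.9 in SMC1, 88.9 and 110 in the CAPH2 libraries and 108 and 94.6 in the SMC2 libraries. GFP was the highest of the 6 libraries and SMC1 the lowest, and the 4 condensin libraries lay between. The log2 change in SMC1 was -1.09 (95% interval -1.17 to -1.02), and it was the only one of the 49 that stayed negative after ERCC scaling, at -0.23. Cdt1, which loads the helicase onto origins and is degraded in S phase (chromosome 8 from 125091915 to 125097030, plus strand), had an RPKM of 144 in GFP, 80.8 in SMC1, 110 and 117 with the CAPH2 hairpins and 120 and 114 with the SMC2 hairpins. Its order of groups was the same as that of Pold2. The change in SMC1 was -0.84 (-0.90 to -0.78), which ERCC scaling turned to 0.03.

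Orc1, the subunit of the origin recognition complex whose amount varies most over the cell cycle, behaved in another way (chromosome 4 from 108252059 to 108287436, plus strand). Its RPKM was 42.8 in GFP, 26.9 in SMC1, 45.3 and 46.7 with CAPH2 hairpins and 45.7 and 42.2 with SMC2 hairpins. The SMC1 library alone stood apart, and the other 5 lay between 42.2 and 46.7. The change in SMC1 was -0.67 (-0.76 to -0.58), and 0.20 after ERCC scaling.

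**Figure D2:**
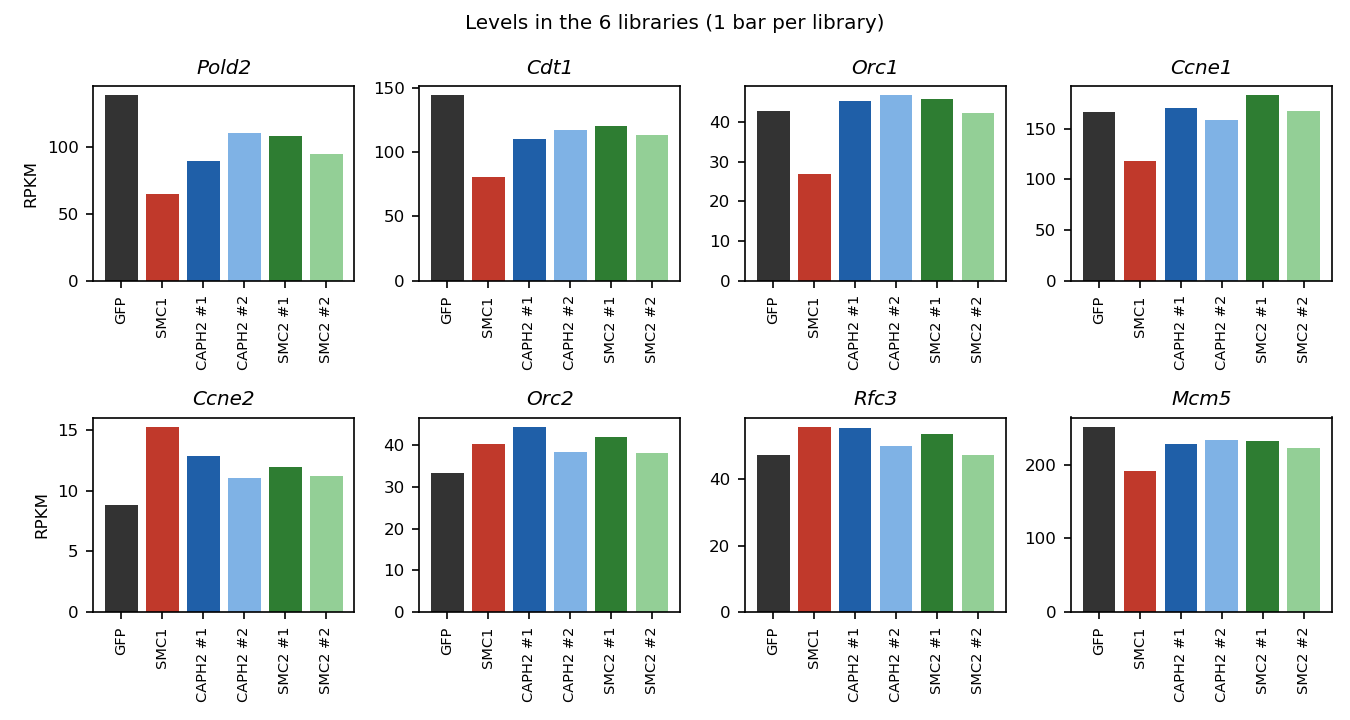
RPKM in each of the 6 libraries (1 bar per library, vertical axes from 0) for 8 replication genes. Pold2 and Cdt1 step down from GFP to the condensin libraries to SMC1, Orc1 and Ccne1 are lowest in SMC1, and Ccne2 is highest in SMC1.

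The other subunits of the origin recognition complex had smaller changes than Orc1, in both directions. Orc2 was higher than GFP in all 5 knockdown libraries (chromosome 1 from 58519615 to 58561763, minus strand). Its RPKM was 33.3 in GFP, 40.3 in SMC1, 44.4 and 38.4 with CAPH2 hairpins and 41.9 and 38.2 with SMC2 hairpins, and the change in SMC1 was 0.28 (0.20 to 0.36). Orc4 (0.22) and Orc6 (0.11) had the same direction in all 5 libraries. Orc6, the most abundant subunit, had an RPKM of 70.8 in GFP, 76.5 in SMC1, 80.0 and 74.3 with CAPH2 hairpins and 77.5 and 72.6 with SMC2 hairpins. Orc3 (-0.06) and Orc5 (-0.19) were below GFP in SMC1 and above it in the 4 condensin libraries, and so were below all 4 of these in SMC1, as Orc1 was. The summed RPKM of the 6 subunits was 225 in GFP, 217 in SMC1 and 235 to 261 in the condensin libraries, and Orc1 was at 62.9% of its GFP level. Reads of several of these genes may include those of neighbours, since the kit does not mark strand and the annotation of mm9 has exons of Orc2 that overlap Nif3l1 over 464 bases and of Orc4 that overlap Acvr2a over 446 bases.

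None of the MCM2-7 helicase genes passed 1.5-fold in any library. All 6 subunits had lower values in SMC1 than in GFP, with log2 changes between -0.40 (Mcm7) and -0.22 (Mcm4) and a median of -0.35, while after ERCC scaling all 6 were higher (0.46 to 0.65). Mcm5, the most abundant of them (chromosome 8 from 77633427 to 77652338, plus strand), had an RPKM of 252 in GFP, 192 in SMC1, 228 and 233 with CAPH2 hairpins and 233 and 223 with SMC2 hairpins. GFP was the highest library and SMC1 the lowest, with no overlap with the condensin libraries. Mcm2, Mcm3, Mcm6 and Mcm7 had the same order of groups, and Mcm4 was near its GFP level in the condensin libraries (log2 changes from -0.003 to 0.09). Mcm7 lies over the exons of Cops6, Ap4m1 and the miRNAs Mir25 and Mir93, with overlaps of at most 247 bases.

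Factors that turn the loaded helicase into a moving one were mostly below GFP in SMC1 as well, and above it after ERCC scaling. Cdc6, the other licensing factor, was near its GFP level at 0.07. Cdc45 changed by -0.30, Gins1 by -0.51 and Mcm10, which binds the helicase at firing, by -0.40. Gins3 (-0.02) and Gins4 (-0.10) had intervals that spanned 0. Gins2 was the exception, with an RPKM of 81.3 in GFP, 83.3 in SMC1, 70.7 and 78.2 with CAPH2 hairpins and 78.4 and 71.9 with SMC2 hairpins. Its change in SMC1 was 0.04 (-0.06 to 0.13), so this interval spanned 0 too. Gins2 was higher in SMC1 than in any condensin library. Its exons overlap those of Gse1, on the other strand, over 2758 bases, and how much of the Gins2 value this accounts for was not tested.

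The 2 cyclins E had opposite signs in SMC1. Ccne1 (chromosome 7 from 38883003 to 38892509, minus strand) had an RPKM of 167 in GFP, 118 in SMC1, 171 and 159 with CAPH2 hairpins and 183 and 167 with SMC2 hairpins. Ccne2 (chromosome 4 from 11118501 to 11131829, plus strand) had an RPKM of 8.82 in GFP, 15.3 in SMC1, 12.9 and 11.1 with CAPH2 hairpins and 11.98 and 11.2 with SMC2 hairpins. Ccne1 was lowest in SMC1, at a log2 change of -0.50 (-0.55 to -0.44), and 0.37 after ERCC scaling. With CAPH2 #2 it was also below GFP, at -0.08. Ccne2 was up in all 5 libraries and most in SMC1, at 0.79 (0.64 to 0.95). It remained the less abundant of the pair in every library. Ccne2 shares 474 bases of exon with Ints8 on the other strand. Of the kinase CDC7-DBF4, Cdc7 changed by -0.02 in SMC1 and its activator Dbf4 by -0.09, and Dbf4 was higher than GFP in all condensin libraries (0.23 to 0.32).

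At the fork itself most values were modestly lower in SMC1, an order that ERCC scaling turned for all but Pold2. The clamp Pcna had an RPKM of 333 in GFP, 266 in SMC1, 313 and 333 with CAPH2 hairpins and 320 and 319 with SMC2 hairpins. Its change in SMC1 was -0.32 (-0.37 to -0.28), and 0.54 after ERCC scaling. Of the clamp loader, Rfc2 (-0.30), Rfc4 (-0.16) and Rfc5 (-0.23) were lower and Rfc1 changed by -0.08. Rfc3 was among the 3 largest increases of the 49, with an RPKM of 47.5 in GFP, 55.9 in SMC1, 55.4 and 50.2 with CAPH2 hairpins and 53.7 and 47.4 with SMC2 hairpins (chromosome 5 from 152445399 to 152453783, minus strand). Its SMC1 value exceeded that of CAPH2 #1 by less than 1 RPKM.

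All 4 subunits of polymerase alpha and primase were below GFP in SMC1, from -0.40 for Pola2 to -0.05 for the catalytic subunit Pola1, and all were above it after ERCC scaling (0.47 to 0.81). Pola2 had an RPKM of 71.0 in GFP, 54.0 in SMC1, 61.7 and 64.8 with CAPH2 hairpins and 65.1 and 58.2 with SMC2 hairpins. Pola1 went the other way in the condensin libraries (0.15 to 0.37), so subunits of one enzyme differed there. Of polymerase delta, the lagging strand enzyme, the subunits among the 49 were lower than GFP in all 5 knockdown libraries. In SMC1 they stood at -0.58 (Pold1), -1.09 (Pold2) and -0.25 (Pold3), with Pold2 alone of these past 1.5-fold. Of polymerase epsilon, the leading strand enzyme, the catalytic subunit Pole stood at 0.02 in SMC1 and 0.03 to 0.14 in the condensin libraries. Its partner Pole2 stood at -0.16 in SMC1 (-0.31 to -0.01) and at -0.05 to 0.11 in the condensin libraries. By RPKM both were lower in SMC1 than in any condensin library, though Pole only narrowly (28.1, against 28.3 with CAPH2 #1). In ERCC scaling Pold1 and Pold3 were above GFP in SMC1, at 0.29 and 0.61.

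The 3 subunits of RPA, which coats single-stranded DNA, were lower in SMC1 by 0.19 to 0.49 (Rpa1 -0.49, Rpa2 -0.19, Rpa3 -0.41) and 0.38 to 0.67 higher after ERCC scaling. Rpa1 had an RPKM of 128 in GFP, 91.6 in SMC1, 126 and 125 with CAPH2 hairpins and 128 and 124 with SMC2 hairpins, and the 5 libraries other than SMC1 were alike. For the joining of Okazaki fragments, Lig1, the ligase, had an RPKM of 132 in GFP, 90.5 in SMC1, 109 and 115 with CAPH2 hairpins and 112 and 108 with SMC2 hairpins. The flap nuclease Fen1 lay between 84.5 and 88.4 RPKM in all 6 libraries. Part of the Fen1 transcript, 1909 bases, is also annotated as a long noncoding RNA on the other strand. Of the nucleotide enzymes, Rrm2, the small subunit of ribonucleotide reductase, had an RPKM of 162 in GFP, 133 in SMC1, 170 and 156 with CAPH2 hairpins and 164 and 156 with SMC2 hairpins. Its partner Rrm1 changed by 0.04 and thymidylate synthase Tyms by -0.01. Of the fork protection pair, Timeless changed by -0.39 in SMC1 and Tipin by -0.10. Tipin had an RPKM of 107 in GFP, 99.5 in SMC1, 127 and 118 with CAPH2 hairpins and 125 and 116 with SMC2 hairpins, so the partners went in opposite directions with condensin hairpins.

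Since every change above shares the single GFP library, SMC1 was also set against the 4 condensin libraries, which does not use GFP. SMC1 was below all 4 for 40 of the 49 genes (81.6%). The background was 41.7% of all genes and 48.2% of the 7635 genes at least as abundant as Ccne2 in GFP. SMC1 was above all 4 for 3 genes, Gins2, Rfc3 and Ccne2 (6.12%), against 36.9% and 30.1%. With ERCC scaling these counts were 0 below and 16 above. When each library was centred on the median change of all genes, an alternative chosen after seeing the data, they were 39 and 3. Some margins were small, as for Pole (28.1 RPKM in SMC1 against a lowest condensin value of 28.3), Rfc2 (80.6 against 81.5) and Cdc7 (26.5 against 27.1). The log2 difference between SMC1 and the mean of the 4 condensin libraries had a median of -0.23 and an interquartile range of 0.17. Over all genes these were -0.03 and 0.54, again not compared at equal counts. The largest differences were those of Orc1 (-0.74), Pold2 (-0.62), Ccne1 (-0.52), Cdt1 (-0.51) and Mcm10 (-0.50). The 49 genes also differed together between hairpins of a single target, by a smaller amount. SMC2 #1 was above SMC2 #2 for 46 of them (93.9%), against 49.4% of all genes, with a median log2 difference of 0.09, and ERCC scaling gave 47. CAPH2 #1 was above CAPH2 #2 for 25 (51.0%), against 50.4% of all genes. With 1 SMC1 library, a difference of this library and one of the knockdown cannot be told apart.

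**Figure D3:**
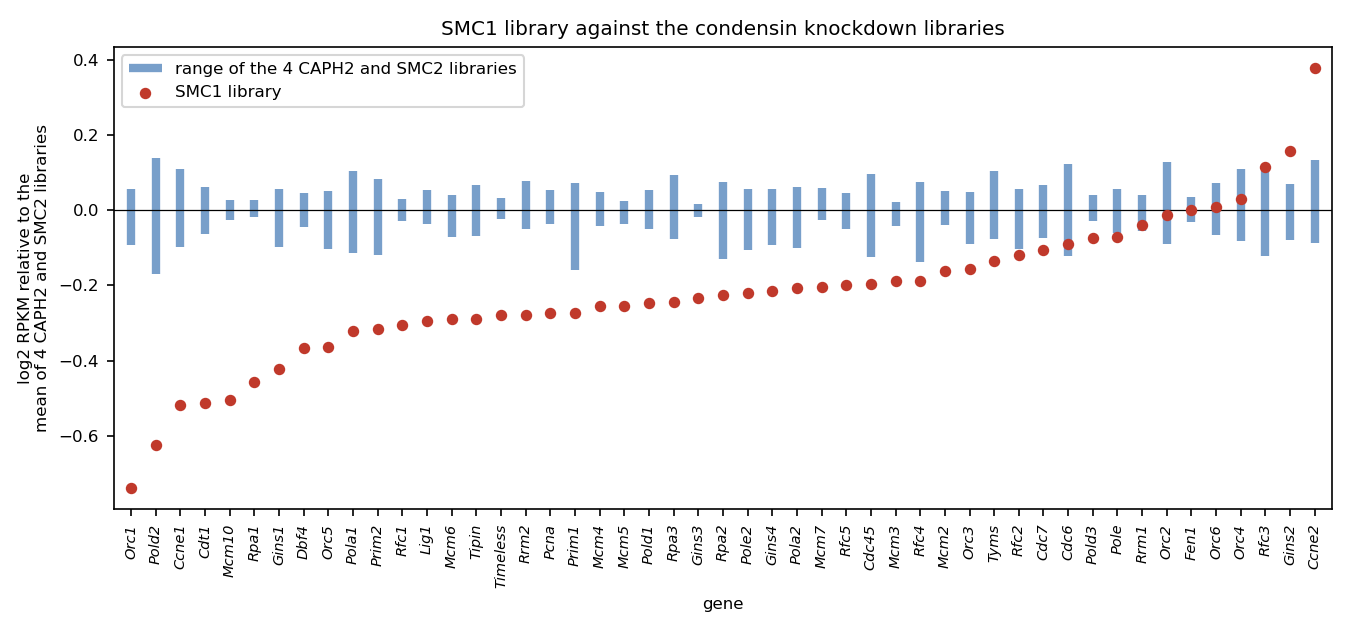
Log2 RPKM of the SMC1 library (points) relative to the mean of the 2 CAPH2 and 2 SMC2 libraries, with the range of those 4 libraries as bars, for the 49 genes in order of the difference. The point lies below the bar for 40 genes and above it for 3, a count that ERCC scaling changes to 0 and 16.

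Markers of cell identity moved with the SMC1 library too. The shares of all genes to set beside their counts are 17.6% at least 1.5-fold lower and 15.1% at least 1.5-fold higher in SMC1. Of 10 ESC markers, all expressed, 9 were at least 1.5-fold lower in SMC1, with a median log2 change of -1.54, and their summed RPKM was 3890 in GFP, 2090 in SMC1 and 3210 to 3420 in the condensin libraries. Of 12 fibroblast markers, 8 had an RPKM of at least 1 in GFP and 7 were at least 1.5-fold higher in SMC1, with a sum of 116 in GFP, 295 in SMC1 and 112 to 182 in the condensin libraries. The markers below 1 RPKM in GFP (Postn, Lum, Dcn and Prrx1) were also higher in SMC1 than in GFP. Lum and Dcn were at or below 0.56 RPKM in all 6 libraries. That highest value was Dcn in SMC1, against 0.026 in GFP (19 counts and 1 count). Of 10 primitive endoderm markers 5 were expressed, and the list summed to 203 in GFP, 330 in SMC1 and 192 to 239 in the condensin libraries. Sparc made up most of that sum (171 in GFP and 277 in SMC1). Of the 5, 4 were at least 1.5-fold higher in SMC1 (Col4a1 1.52, Dab2 1.45, Sparc 0.69 and Gata4 0.60), and Lama1 was lower (-1.02). Of the markers below 1 RPKM in GFP, Gata6 was lower in SMC1 (0.713 in GFP and 0.505 in SMC1). Sox17, Sox7, Foxa2 and Pdgfra, also below 1 RPKM in GFP, were higher in SMC1. Sox17 was at most at 0.33 RPKM, with 0.12 in GFP and 0.30 in SMC1. Of 8 trophectoderm markers 6 were expressed, and the list summed to 174, 293 and 134 to 180. Krt8 (1.19), Krt18 (1.36) and Krt7 (0.92) were higher in SMC1, while Tfap2c (-3.13), Hand1 (-0.74) and Eomes (-0.55) were below GFP. Cdx2, below 1 RPKM in GFP, was at 0.325 there and at 2.59 in SMC1 (15 and 107 counts). In the condensin libraries Cdx2 was at 0.71 to 0.97. Elf5 was listed at 0 in 5 of the 6 libraries. Whether cells of these types were present, and what part they had in the replication genes' values, was not tested. The decrease of the replication genes was small beside that of the ESC markers.

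With condensin hairpins the 49 genes stayed close to GFP, and so did most genes. The median size of the log2 change was 0.13 for CAPH2 and 0.11 for SMC2, against 0.18 for both over all genes. The median log2 change was 0.06 for the average of the CAPH2 hairpins and 0.004 for that of the SMC2 hairpins, against -0.02 and -0.03 over all genes. No gene of the 49 was at least 1.5-fold lower or higher with both CAPH2 hairpins, where the background was 2.28% and 1.56% of all genes. None was with both SMC2 hairpins, where it was 2.35% and 1.45%. These shares are low, so a count of 0 among 49 genes is near them. With ERCC scaling 17 of the 49 passed the 1.5-fold limit upward with both SMC2 hairpins. In single libraries only Pold2 passed 1.5-fold, with CAPH2 #1 (-0.64), while CAPH2 #2 gave -0.33. The hairpins of a target differed by a median of 0.06 log2 units in size over the 49 genes for CAPH2 and by 0.09 for SMC2.

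Shares of the 49 genes on one side of GFP in all 4 condensin libraries were near those of all genes. For 18 of the 49 genes (36.7%) all 4 were lower than GFP, against 38.4% of all genes, and for 18 (36.7%) all 4 were higher, against 31.8%. ERCC scaling left 0 of the former and gave 26 of the latter. The single GFP library enters all 4 comparisons. The first 18 included Pold1, Pold2, Pold3, Cdt1, Lig1, Rfc2, Pola2 and every MCM2-7 subunit but Mcm4. The second 18 included Orc2 to Orc6, Cdc6, Dbf4, Rfc1, Pola1, Ccne2, Tipin and Rrm1. GFP was above all 5 knockdown libraries for 17 genes (34.7%), against 32.6% of all genes, and below all 5 for 7 (14.3%), against 26.3%. These counts were 0 and 26 with ERCC scaling.

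Changes against GFP tended to be lower for transcripts richer in G and C, with exceptions such as Rpa3, which was lower in all 4 condensin libraries at 40.4% G and C. Base composition was looked at after the values were seen, from the longest GENCODE coding transcript of each gene in the mm9 annotation. Across the 49 genes the mean change of the condensin libraries had a Pearson r of -0.75 with GC content (Spearman -0.68), and across 10475 genes r was -0.49 (-0.53). For SMC1 against GFP these were -0.60 (-0.46) and, across 10476 genes, -0.25 (-0.30). The points share the same libraries and the same GFP library, and genes are not replicates. Pold1 (60.7% G and C), Cdt1 (58.8%) and Pold2 (58.7%) had the highest GC content of the 49, and Ccne2 (36.3%) the lowest. When SMC1 was set against the condensin libraries in place of GFP, r was -0.25 (-0.07) over the 49 genes. The median of that difference was -0.25 in the 16 genes with the lowest GC content, -0.20 in the 17 in the middle and -0.22 in the 16 with the highest. The part of GC content in these changes was not tested.

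**Figure D4:**
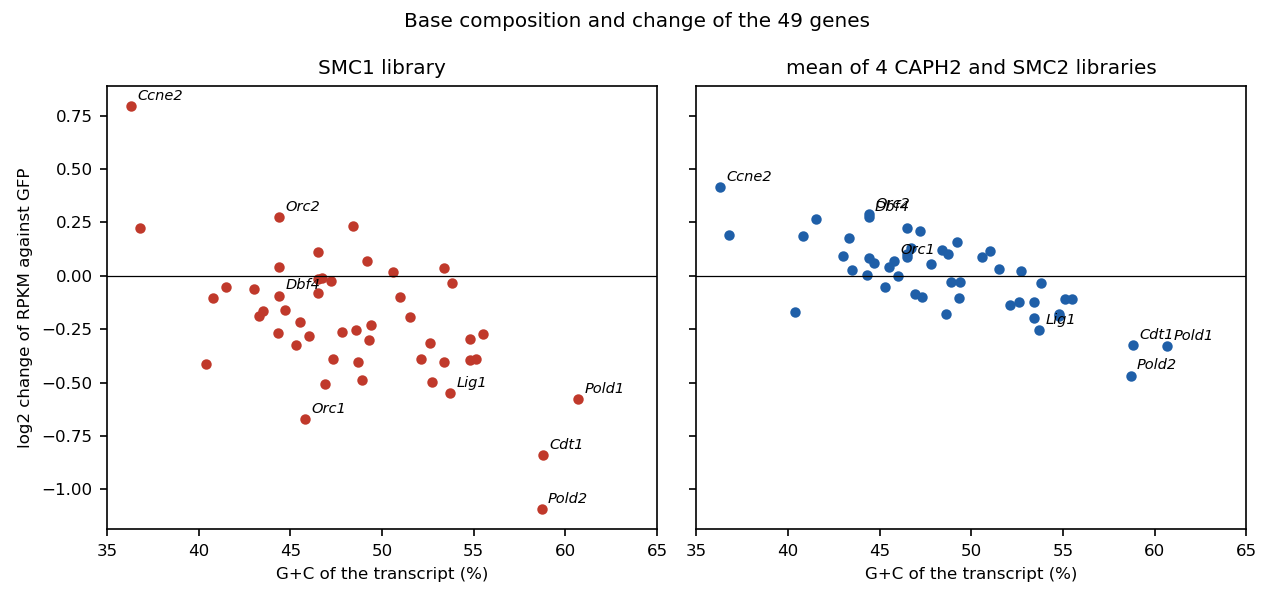
Log2 change of RPKM against GFP (vertical axis) by the G and C content of the transcript in percent (horizontal axis) for the 49 genes, in the SMC1 library and as the mean of the 4 condensin libraries. Both clouds slope downward, with Ccne2 at the upper left and Pold1, Pold2 and Cdt1 at the lower right, and ERCC scaling would shift every point of the left panel up by 0.87.

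The CAPH2 and SMC2 libraries, with 2 in each group, allowed a test. By edgeR's quasi-likelihood test, with Benjamini-Hochberg adjustment over 14231 genes, 0 of the 49 differed between them at an adjusted p below 0.05 (background 0.00703%, which is Smc2 itself), 0 had an unadjusted p below 0.05 (background 3.0%), and DESeq2 also called 0. The log2 fold changes, SMC2 over CAPH2, ran from -0.13 (Rfc4, SE 0.08) to 0.10 (Ccne1, SE 0.07), with a median of -0.03. All 95% intervals lay between -0.31 and 0.27, so that a 1.5-fold difference (0.58) lay outside the interval of every gene. Pold2 had the widest interval, from -0.20 to 0.27. The edgeR adjusted p-value was 0.999 for all 49. These p-values measure only the spread between these libraries.

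**Figure D5:**
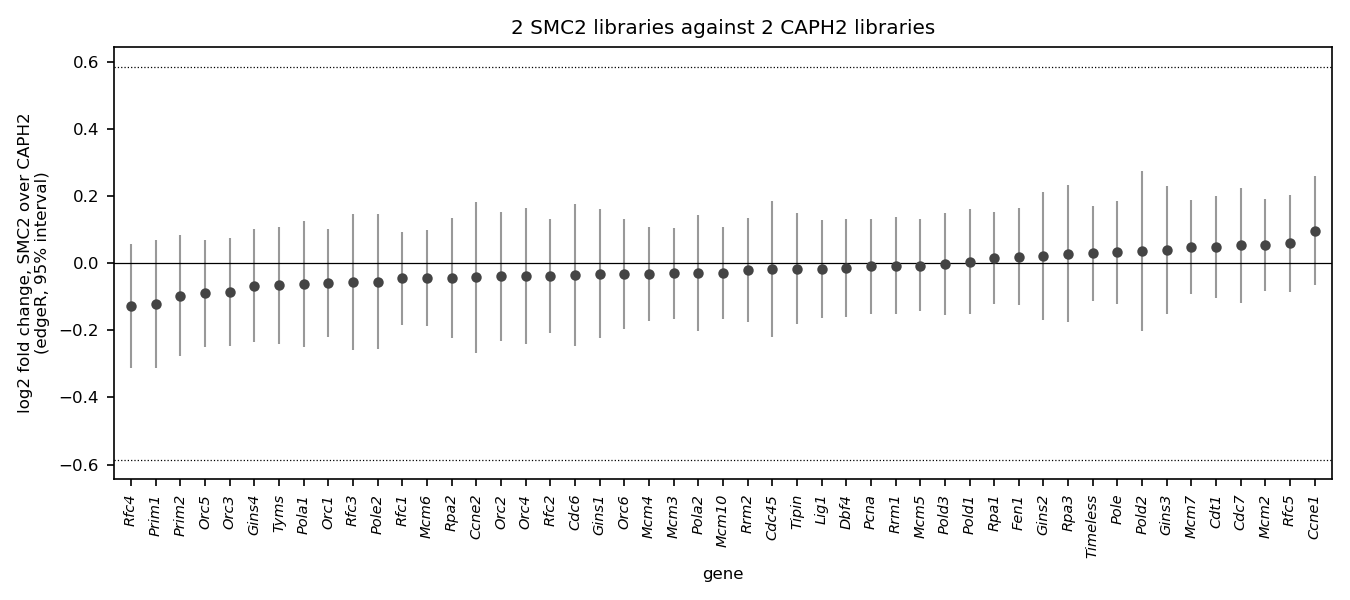
Log2 fold change between the 2 SMC2 and the 2 CAPH2 libraries by edgeR (points) with 95% intervals (bars) for the 49 genes in order of the change, and dotted lines at 1.5-fold. Every interval spans 0 and lies inside the dotted lines.

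In a list of 29 regulators of S-phase entry 5 were at least 1.5-fold lower in SMC1 (17.2%, against 17.6% of all genes) and 7 at least 1.5-fold higher (24.1%, against 15.1%), with a median of 0.05. The share of decreases was that of all genes. Cyclin D3 (Ccnd3, -1.86), E2f2 (-1.25) and E2f1 (-0.91) had the largest decreases. Cdkn1c, which encodes the CDK inhibitor p57 (1.75), Ccnd2 (1.55) and Cdkn1a, which encodes p21 (1.18), had the largest increases. Cdkn1a was at 0.74 with CAPH2 #1 and at 0.06 with CAPH2 #2, so the hairpins of that target differed. Each of the 3 decreases is larger than the ERCC shift of 0.87.

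Genes that work beside the 49 at the fork gave mixed values in SMC1, to be read against the 17.6% of all genes that were at least 1.5-fold lower and the 15.1% that were higher. Of 25 replisome and checkpoint partners 2 were lower and 2 higher (8.0% each), with a median of -0.15. They were Pold4 (-0.92), the fourth subunit of polymerase delta, and Rnaseh2a (-0.82), which were lower, and Top1 (0.92) and Clspn (0.73), which were higher. Of 9 genes for cohesion at forks 2 were lower (Chtf18 -0.77 and Esco2 -0.76) and 2 higher (Pds5b 0.92 and Esco1 0.74). Of 9 genes for chromatin assembly 1 was lower (Chaf1b -0.75) and 0 higher, and of 11 for nucleotide metabolism 2 were lower (Shmt1 -1.09 and Tk1 -0.61) and 0 higher. Of 20 mitotic genes 1 was lower (Ccnb2 -0.68) and 0 higher. The mitotic list had a median of -0.02, and SMC1 was below all 4 condensin libraries for 9 of its 20 genes and above them for 2, against 41.7% and 36.9% of all genes and 40 and 3 of the 49 replication genes. Of the decreases named in these lists, those of Pold4 and Shmt1 exceed the ERCC shift of 0.87, and the others would turn positive under that scaling. The difference between the lists was not tested.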

How the data were processed

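Total RNA from 6 libraries was sequenced with a TruSeq kit that does not mark strand. The authors aligned reads with Bowtie (-e 70 -k 1 -m 2 -n 2) to mm9 and deposited 2 values per RefSeq transcript, a raw count over its exons and an RPKM, made with RPKM_count 2.3.5. Whether counting used strand is not given in the sources used here. The labels number the CAPH2 hairpins 3 and 4, and they are called #1 and #2 here, as in the paper. The paper gives another puromycin concentration than the labels. From 26073 RefSeq rows, 25349 matched a symbol and 724 did not, and 1 row per gene was kept.

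The genes and gene lists were chosen with earlier results of these data known. Values in all 6 libraries are given for the 3 largest decreases and 3 largest increases in SMC1, for the most abundant gene of each role and for the targets. Other genes outside the 49 come from named lists, at most 6 per list, largest SMC1 changes first. Cell type markers and genes with overlapping exons were not named by that rule. Log2 changes are ratios of the deposited RPKM without a pseudocount, over genes whose GFP RPKM reached 1. CAPH2 was tested against SMC2 with edgeR 4.0.16 (TMM, at least 10 counts in at least 2 libraries) in R 4.3.3, with DESeq2 1.42.0 as an alternative, and the edgeR step was tested on simulated data. Other steps used Python 3.11.15. Alternatives were other scalings, filters, a pseudocount of 1, a 2-fold limit, a replicate block and leaving out each hairpin. The hairpin pairs differed by more than sampling noise (chi-square per degree of freedom 7.56 and 5.63), so none was counted as 1 sample.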

Additional observations from a re-analysis of the deposited data

Results flagged for a closer look

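For 12 of the 49 genes the SMC1 library lay on one side of GFP and all 4 condensin libraries on the other. The differences between SMC1 and condensin were not tested. In 11 of them SMC1 was lower than GFP and the condensin libraries higher, a pattern that 5.44% of all genes had. The log2 difference, SMC1 minus the mean of the condensin libraries, was -0.50 for Mcm10, -0.37 for Dbf4, -0.37 for Orc5, -0.32 for Pola1, -0.31 for Rfc1 and -0.29 for Tipin. It was -0.23 for Gins3, -0.21 for Gins4, -0.16 for Orc3, -0.14 for Tyms and -0.10 for Cdc7. Gins2 alone had the opposite pattern, at 0.16, which 5.81% of all genes had. All 12 use the single GFP library, and ERCC scaling placed SMC1 above GFP for each of them. In Cdc7, Tyms, Orc3, Gins2, Gins3, Gins4 and Pola1 the counting interval of SMC1 against GFP spanned 0. So did the interval of a condensin library in Cdc7, Tyms, Orc3, Orc5, Gins2 and Gins4. With SMC2 #2, for example, Orc3 stood at 0.005 (-0.086 to 0.095) and Orc5 at 0.072 (-0.013 to 0.156).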

How the results depend on the processing

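Of 134 alternative values of the comparisons 118 kept the call or stayed within the limits set for it, and 16 moved. ERCC scaling made most of the changes. It gave a median log2 change of 0.64 for SMC1, 0.39 for CAPH2 and 0.61 for SMC2, left 0 genes 1.5-fold lower and put 29 higher in SMC1, and put 17 higher with both SMC2 hairpins. It left SMC1 below the condensin libraries for 0 genes and above for 16, GFP below the knockdown libraries for 26 genes and above for 0, and all condensin libraries lower than GFP for 0. It turned Orc1 to 0.20 and Cdt1 to 0.027 in SMC1. Centring on the median of all genes, added after seeing the data, put GFP below all knockdown libraries for 11 genes in place of 7. At 2-fold, SMC1 was lower for 1 gene and higher for 0. The SMC2 median ranged from -0.049 to 0.044 when a hairpin was left out, the lower value being that without SMC2 #1, and the CAPH2 count of lower genes from 0 to 1, the 1 being Pold2 without CAPH2 #2.

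In CAPH2 against SMC2 the 49 genes had 0 calls under every alternative run. The count of all genes called was 1 by edgeR and by DESeq2 size factors, 5 without a filter, 3 with ERCC scaling, 4 with DESeq2, and 42 with the replicate block. It was 18 without CAPH2 #1, 294 without CAPH2 #2, 6 without SMC2 #1 and 1 without SMC2 #2. Same-numbered CAPH2 and SMC2 libraries had deviations that correlated at 0.05, and the numbers are names of hairpins only, so the replicate block pairs nothing by design. Without replicates of GFP and SMC1 the depth sets only the counting error.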
